A study of Homo sapiens with 6 samples.

Results

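VMP1 and the microRNA gene MIR21 share a stretch of chromosome 17. VMP1 spans chr17:59707654-59842255 on the plus strand of GRCh38.p14 (134602 bp), and the 72 bp hairpin of MIR21 lies inside that span on the same strand at chr17:59841266-59841337, with 918 bp from its last base to the annotated end of VMP1. These 2 features were taken by gene symbol from a table of 25827 annotated features, and VMP1 was also read from signal profiles along genes. The values come from PRO-seq, a method that maps transcribing RNA polymerases by sequencing the RNA they extend in permeabilized cells. The cells were SBC-3, a human line of small cell lung cancer, of wild-type genotype. Cells were reverse transfected with an siRNA against SFPQ (siSFPQ-2 or siSFPQ-3) or with a control siRNA (siCtrl) at 10 nM and harvested at 72 h, with 2 libraries for each of the 3 groups. The design addresses how loss of SFPQ, an RNA- and DNA-binding protein of the DBHS family, bears on transcription of primary microRNA transcripts. Whether the paired libraries of a group are separate cultures is not stated in the labels, and p-values reflect the spread among these libraries, possibly technical.

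VMP1 encodes a membrane protein of the endoplasmic reticulum that is required for autophagosomes to form. MIR21 encodes miR-21, a microRNA that is abundant in many tumours and represses PDCD4 and Sprouty genes. Its primary transcript is known to start at a promoter of its own inside the 3′ part of VMP1, and also to be made by polymerases that read through VMP1. PRO-seq reads over MIR21 therefore count polymerases on this stretch, whichever transcript they make, and not the mature microRNA.

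The mature sequence from the 5′ arm is shown because it identifies the microRNA, with its seed, bases 2 to 8, in capitals. It lies at chr17:59841273-59841294 (RefSeq, GRCh38.p14, plus strand). Of the 2370 mature microRNA names in the RefSeq table, 2 had this seed, and the other was hsa-miR-590-5p at chr7:74191213-74191234. The pair matched at 8 of 22 positions.
hsa-miR-21-5p: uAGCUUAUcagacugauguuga
hsa-miR-590-5p: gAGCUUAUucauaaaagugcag
MIR590, in the gene EIF4H on chromosome 7, had between 1.78 and 7.75 normalized reads in the siSFPQ libraries, against 7.17 and 1.11 in siCtrl, and did not reach the minimum for a test. Its host EIF4H, a translation initiation factor gene, had a log2 difference of -0.02 (limma adjusted p = 0.834).

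VMP1 shares its promoter region with PTRH2, a mitochondrial peptidyl-tRNA hydrolase gene that runs the other way. The 223 bases between their annotated starts, chr17:59707431-59707653 on the plus strand of GRCh38.p14 (RefSeq), are shown because PTRH2 serves below as the nearest gene with the same upstream DNA. Their GC content was 58.7%.
PTRH2 to VMP1: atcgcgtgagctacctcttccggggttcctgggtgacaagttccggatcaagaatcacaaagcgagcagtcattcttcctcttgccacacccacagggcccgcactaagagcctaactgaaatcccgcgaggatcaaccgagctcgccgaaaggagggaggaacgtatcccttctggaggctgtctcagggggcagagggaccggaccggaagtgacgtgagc
The window from 250 bases before to 50 after the VMP1 start was searched on both strands for 6 short motifs, and none was found, so no base is in capitals. Of 27305 windows of the same kind, TGANTCA (AP-1) was in 7.76%, TGACGTCA (CRE) in 1.98%, CACGTG (E-box) in 7.43%, CCAAT in 35.7%, TATAAA in 12% and GGGCGG (GC box) in 44.6%.

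Reads on VMP1 rose in every library given an siRNA against SFPQ. The deposited normalized reads were 6023 and 6317 after siSFPQ-2, then 8146 and 9063 after siSFPQ-3, against 2352 and 1813 with siCtrl. The 4 siSFPQ libraries all lay above both siCtrl libraries. The mean was 7387 ± 1460 (SD, n = 4) with siSFPQ and 2083 ± 381 (SD, n = 2) with siCtrl, a ratio of 3.55. On the log2(value + 1) scale the difference was 1.82 (SE 0.13, limma adjusted p = 1.90e-06), and it exceeded that of 96.7% of the 21773 features tested. The authors' deposited table gives VMP1 a log2 fold change of 1.83 with an adjusted p of 7.96e-25. Changes were widespread in these libraries: 24.8% of tested features rose and 23.2% fell at an adjusted p under 0.05, and in 30.3% all 4 siSFPQ libraries lay above both siCtrl libraries.

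MIR21 rose as well, from few reads. Its normalized reads were 58.8 and 49.8 for siSFPQ-2, and 86.0 and 91.1 with siSFPQ-3, against 14.3 and 5.54 with siCtrl. The groups did not overlap, and the lowest siSFPQ library stood more than 3-fold above the higher siCtrl library. The mean was 71.5 ± 20.2 (SD, n = 4) with siSFPQ and 9.94 ± 6.23 (SD, n = 2) with siCtrl, a ratio of 7.19. The log2 difference was 2.81 (SE 0.33, limma adjusted p = 7.20e-05), the third largest of 154 tested microRNA features. MIR21 reached the minimum of 10 normalized reads in 2 libraries through the siSFPQ libraries. The authors' deposited table gives a log2 fold change of 2.78 with an adjusted p of 5.69e-09.

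The siCtrl values of MIR21 rest on very few molecules. Whole reads on MIR21 numbered 66 and 45 for siSFPQ-2, and 80 and 90 with siSFPQ-3, against 18 and 5 with siCtrl. Exact Poisson 95% intervals, which cover counting error only, were 10.7 to 28.4 reads for siCtrl replicate 1 and 1.62 to 11.7 for siCtrl replicate 2. The log2 difference was 3.43 without siCtrl replicate 1 and 2.20 without siCtrl replicate 2, past the threshold in both. VMP1 had between 5705 and 8949 whole reads in siSFPQ libraries and 2951 and 1637 in siCtrl libraries, so counting error was small there. An exact permutation test of 4 libraries against 2 cannot go below p = 0.133 two-sided, the value it gave for VMP1 and for MIR21.

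**Figure D1:**
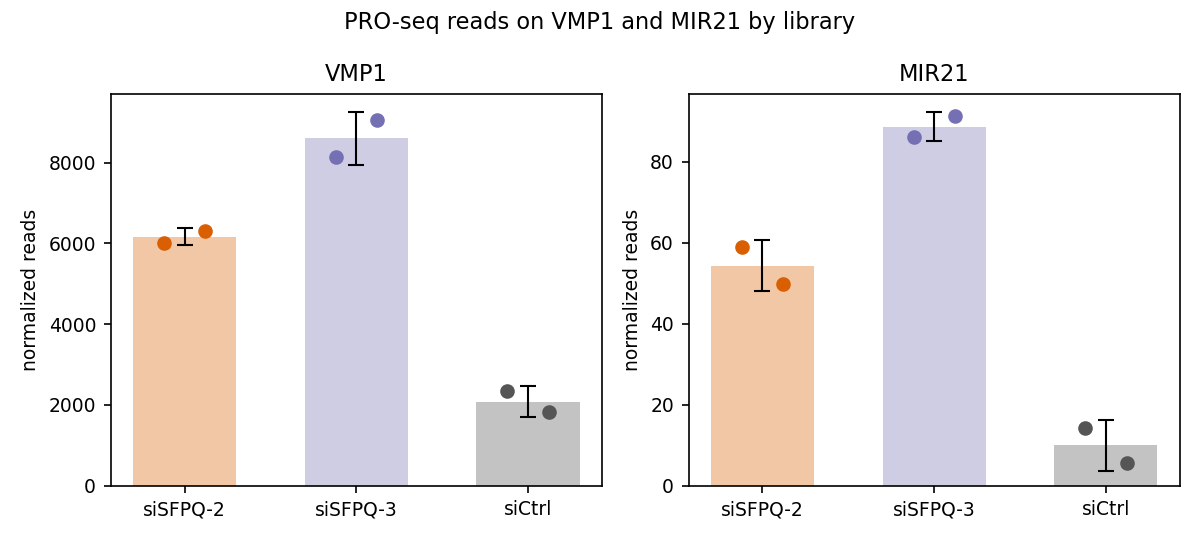
Normalized reads (y axis) on VMP1 (left) and MIR21 (right) for siSFPQ-2, siSFPQ-3 and siCtrl; points are libraries, bars group means and error bars SD (n = 2 each). Every siSFPQ point lies above every siCtrl point in both panels, from 6023 on VMP1 and from 49.8 on MIR21.

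Both features rose with each siRNA taken alone. VMP1 rose by 1.58 (SE 0.14, limma adjusted p = 2.41e-05) with siSFPQ-2 and by 2.06 (SE 0.14, adjusted p = 2.81e-06) with siSFPQ-3 on the log2 scale. MIR21 rose by 2.46 (SE 0.38, adjusted p = 0.000633) with siSFPQ-2 and by 3.16 (SE 0.38, adjusted p = 0.000108) with siSFPQ-3. Of all tested features, 21.2% rose after siSFPQ-2, 23% rose after siSFPQ-3, and both comparisons share the siCtrl libraries. Both siSFPQ-3 libraries stood above both siSFPQ-2 libraries on each feature, and the share of all features with this order was not counted. Between the siRNAs, siSFPQ-3 minus siSFPQ-2 was 0.48 (SE 0.14, adjusted p = 0.212) for VMP1 and 0.70 (SE 0.38, adjusted p = 0.482) for MIR21. Neither difference passed the threshold, in a comparison where 0.101% of features did.

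SFPQ itself, the gene the siRNAs target, had 1825 and 1972 normalized reads after siSFPQ-2, then 1922 and 2466 after siSFPQ-3, against 2294 and 2435 with siCtrl (log2 difference -0.22, limma adjusted p = 0.137; 0.0256 without siSFPQ-3 replicate 2 and 0.0492 with the replicate block). An siRNA acts on finished RNA and PRO-seq reads come from RNA still being made, so these values do not check the depletion. Whole reads recovered from the normalized values and summed over the listed features came to between 12072813 and 18475158 per library. The small cell lung cancer markers NEUROD1, POU2F3, YAP1, SYP and DLL3 were detected, YAP1 at the highest level, and CHGA lay between 0 and 5.54 normalized reads in all libraries. The small cell lung cancer markers summed to between 5171 and 5922 with siSFPQ, against 3375 to 3868 with siCtrl, most of it YAP1. NEUROD1 averaged 15.5 with siSFPQ and 29.1 with siCtrl, POU2F3 84.6 with siSFPQ and 124 with siCtrl, and DLL3 71.8 with siSFPQ and 127 with siCtrl. Summed markers of other cell types were also higher with siSFPQ than with siCtrl. Epithelial markers (EPCAM, KRT8, KRT18; 3 of 4 in the table) summed to between 2207 and 2717 with siSFPQ, against 921 to 1016 with siCtrl, and KRT8 and KRT18 carried the difference, EPCAM averaging 127 with siSFPQ and 119 with siCtrl. The fibroblast markers COL1A1 and COL1A2 (2 of 4) summed to between 411 and 582 with siSFPQ, against 224 to 255 with siCtrl, and COL1A1 carried the difference, COL1A2 overlapping between the groups. CD79A, the 1 immune marker of 4 in the table, had between 25.8 and 42.5 with siSFPQ, against 6.38 and 19.9 with siCtrl. No endothelial marker was in the table. The part of these shifts in the rise of VMP1 and MIR21 was not tested.

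The reads on MIR21 stood at a larger share of those on its host gene in the siSFPQ libraries, a difference that did not pass its test. Its reads came to 0.977% and 0.789% of those on VMP1 after siSFPQ-2, then 1.06% and 1.01% after siSFPQ-3, against 0.610% and 0.305% with siCtrl. The groups did not overlap, and the share of microRNA and host pairs without overlap was not counted. The log2 ratio of MIR21 to VMP1 was higher by 0.99 (SE 0.31) with siSFPQ than with siCtrl, over 66 microRNA and host pairs tested (limma adjusted p = 0.105; exact permutation p = 0.133, the smallest that test can give). The difference was 1.42 without siCtrl replicate 1 and 0.57 without siCtrl replicate 2. It was the third largest rise among the pairs, whose median was -0.07 and of which 1.52% passed. The pair that passed was MIR4741 in RBBP8, a DNA end resection gene, where the ratio fell by 1.64 on the log2 scale (adjusted p = 0.0112). That call was lost without either siCtrl library.

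Per kilobase of hairpin, MIR21 stood higher in the order of these 66 microRNAs in the siSFPQ libraries. It averaged 993 normalized reads per kb with siSFPQ and 138 with siCtrl. These were rank 9 and rank 52, beside medians over the 66 of 213 with siSFPQ and 244 with siCtrl. The list holds microRNAs that reached the minimum in some library, so the ranks describe these libraries and are not a test.

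Along VMP1, the ratio of siSFPQ to siCtrl signal was smallest at the start of the gene and largest in its interior. The deposited profiles divide a gene into 300 bins and add 100 bins on each side. The first 5 bins of the gene are called the promoter window here, the last 10 the 3′ end, and the 270 left after taking off the first 10 and the last 20 the body. Mean body signal was 1267 and 1287 for siSFPQ-2, and 1694 and 1879 with siSFPQ-3, against 366 and 260 with siCtrl. The mean over libraries was 1532 ± 304 (SD, n = 4) with siSFPQ and 313 ± 74.6 (SD, n = 2) with siCtrl, a ratio of 4.89. Over all 300 bins the ratio of means was 4.48, against 3.55 for the normalized reads on VMP1. The reason for this gap was not tested, so profile ratios are not to be read as fold changes of normalized reads. In the promoter window the values were 2375, 2721, 3026 and 2773 with siSFPQ, against 1456 and 1577 with siCtrl, a ratio of means of 1.80. The first bin, where the profile is highest, had 4514, 5124, 5228 and 4784 with siSFPQ, against 3453 and 3826 with siCtrl, a ratio of means of 1.35. Polymerase II commonly pauses just after the start of a gene, which gives such a peak.

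**Figure D2:**
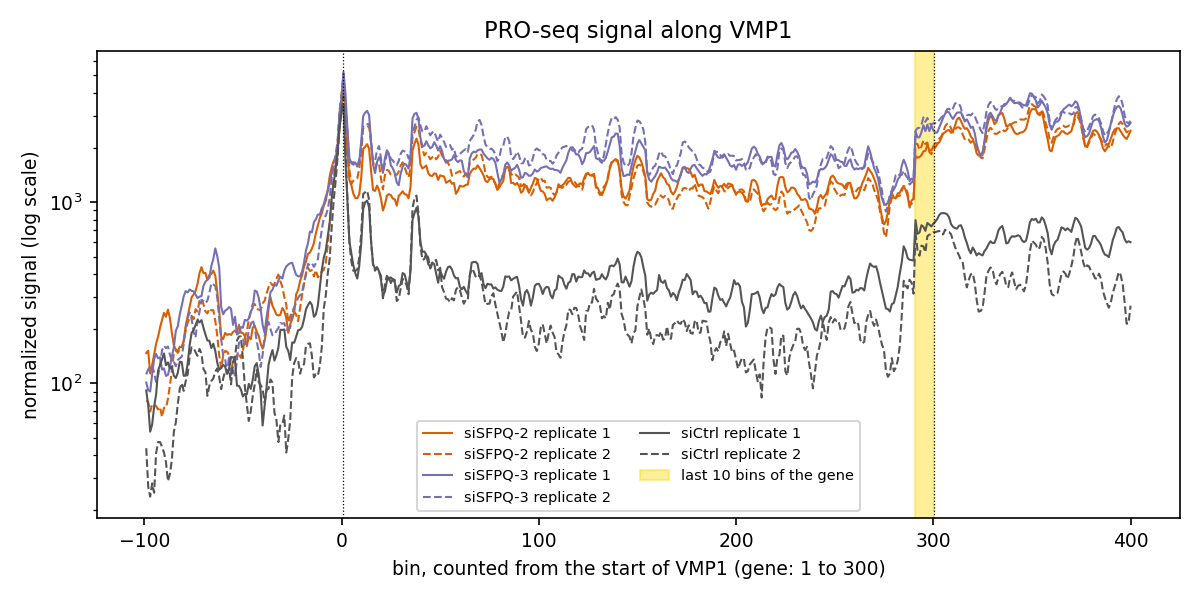
Deposited PRO-seq signal (y axis, log scale) in 500 bins along VMP1 (x axis, bins counted from the start of the gene; dotted lines mark its start and end) for the 4 siSFPQ and 2 siCtrl libraries. The peak in the first bin lies between 4514 and 5228 with siSFPQ and at 3453 and 3826 with siCtrl, the body is much further apart, and all 6 lines step up at the last 10 bins.

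Signal in the promoter window thus stood nearer to that of the body after siSFPQ. The promoter window had 1.87, 2.11, 1.79 and 1.48 times the body signal with siSFPQ, against 3.98 and 6.05 times with siCtrl. The groups did not overlap, and the share of profiles without overlap was not counted. The log2 ratio was lower by 1.45 with siSFPQ (difference -1.45, SE 0.30), but with a limma adjusted p of 0.0777 over 34046 profiles it did not pass the threshold, and the exact permutation p was 0.133, the smallest possible. The median difference over all these profiles was -0.20, 9.73% of them had a more negative value than VMP1, and 1.01% passed.

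Over 10 equal parts of the gene, the ratio of mean siSFPQ to mean siCtrl signal was 2.74 in the first, 3.90 in the second and 4.94 in the third. It was highest in the seventh, at 6.27, and 3.61 in the last. The siSFPQ libraries kept much of their signal along the gene, between 1441 and 2065 in the first part and between 1118 and 1695 in the seventh. The siCtrl libraries had 654 and 697 in the first part and 158 and 294 in the seventh. The ratio of the last to the first 30 body bins was 0.854, 0.603, 0.735 and 0.744 with siSFPQ, against 0.643 and 0.346 with siCtrl. These groups overlapped, and the log2 difference of 0.63 did not pass (SE 0.34, limma adjusted p = 0.529). It was 1.07 without siCtrl replicate 1 and 0.18 without siCtrl replicate 2. Of all profiles, 0.132% passed, and the exact permutation p was 0.267.

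**Figure D3:**
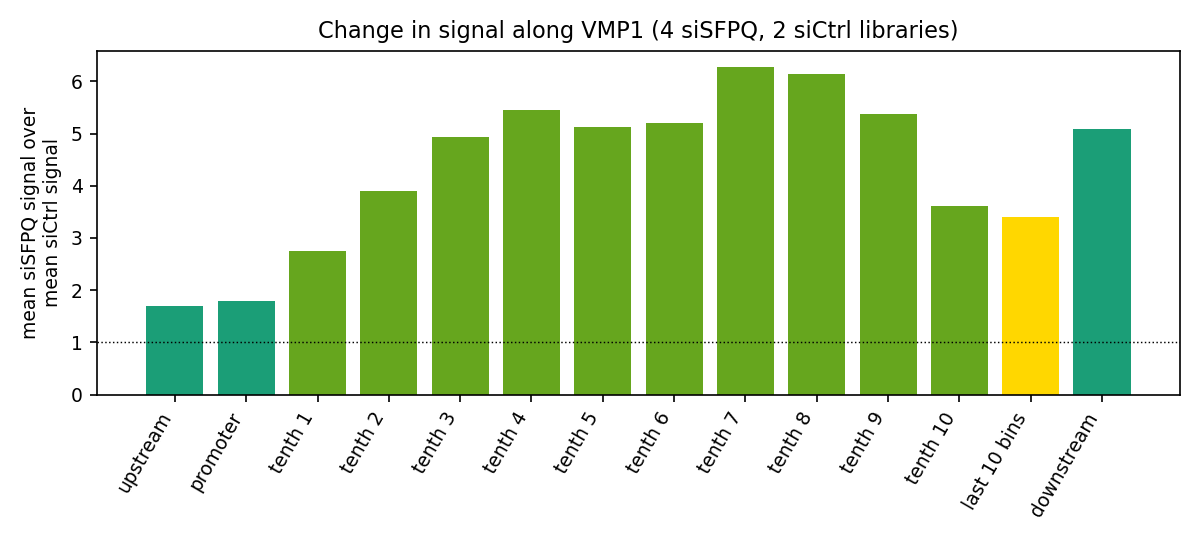
Ratio of mean siSFPQ signal (4 libraries) to mean siCtrl signal (2 libraries) on the y axis, for windows along VMP1 on the x axis; the dotted line marks equal signal. The ratio is 1.69 upstream and 1.80 in the promoter window, reaches 6.27 in the seventh of 10 parts, and is 3.40 in the last 10 bins and 5.09 downstream.

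Near its 3′ end VMP1 carried more signal than its body in every library. In the last 10 bins the signal was 1894, 2024, 2484 and 2704 with siSFPQ, against 733 and 605 with siCtrl, a ratio of means of 3.40. Relative to the body this was 1.495, 1.57, 1.47 and 1.44 times with siSFPQ, against 2.00 and 2.32 times with siCtrl. The mean log2 ratio of VMP1 over all libraries was 0.75 and exceeded that of 96.1% of profiles, whose median was -0.98. Those profiles include ones with a mean body signal down to 0.192, where the pseudocount of 0.101 weighs on the ratio. The ratios of VMP1 did not overlap between the groups, and the share of profiles without overlap was not counted. The log2 difference of -0.53 did not pass (SE 0.16, limma adjusted p = 0.433, exact permutation p = 0.133). Of all 34046 profiles 0% passed in this comparison by limma, and 3302 had an unadjusted p under 0.05. On MIR21 itself, which lies near this end, the share of VMP1 reads was higher with siSFPQ, and that difference did not pass its test either. A ratio of profile windows and a share of normalized reads are unlike measures, and they were not compared.

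The excess at the 3′ end began with a step between neighbouring bins. Across the boundary of the last 10 bins the signal was 1040 before and 1797 after in siSFPQ-2 replicate 1, and 1009 and 2098 in replicate 2. It was 1331 before and 2447 after in siSFPQ-3 replicate 1, and 1329 and 2477 in replicate 2. With siCtrl it was 476 before and 795 after in replicate 1, and 312 and 678 in replicate 2. Beyond the first 20 bins of the gene this was the largest rise between neighbouring bins in 5 of 6 libraries, siCtrl replicate 1 being the exception. The last 10 bins had 1.73, 1.86, 1.73 and 1.96 times the signal of the 10 before them with siSFPQ, against 1.61 and 2.21 times with siCtrl. The groups overlapped, and the log2 difference was -0.05 (SE 0.17, limma adjusted p = 1; this denominator was chosen after the step was seen). In all, 92.5% of profiles had a smaller ratio of this kind than VMP1.

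If the 300 bins cover the RefSeq span, each holds 449 bp, the step falls at chr17:59837769, 3496 bp before MIR21 and 4485 bp before the end of VMP1, and MIR21 lies in bin 298. How far each profile extends is not stated in the labels or file headers. These positions are therefore approximate and hold only under that premise, which was not tested. In bin 298 the signal was 1946, 1895, 2468 and 2723 with siSFPQ, against 752 and 662 with siCtrl. These values cannot be set against the ratio of 7.19 for normalized reads on MIR21. Profile and normalized-read ratios already differed for VMP1 itself. Profile heights also cannot be set against other genes: the profile signal per normalized read, over the RefSeq span, was 36.3 times the median of genes with 1 RefSeq transcript for VMP1, which has 10, and 7.36 times for genes with over 20. It was higher than in 98.8% of 13174 genes. Signal heights are compared here between libraries and within VMP1 only. Whether a profile sums over a gene's transcripts is not stated. How far that shapes heights within VMP1, such as the step and the 3′ end excess, was not tested. Where VMP1 is ranked among profiles, the values are ratios of windows within a profile. Whether all profiles were built alike is not stated, and the profiles ranked include ones with very low body signal. Both limit those ranks too.

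Signal stayed high past the annotated end. The downstream bins had 2492 and 2498 for siSFPQ-2, and 2986 and 3147 with siSFPQ-3, against 664 and 429 with siCtrl, a ratio of means of 5.09. Downstream over body was 1.97, 1.94, 1.76 and 1.67 times with siSFPQ, against 1.81 and 1.65 times with siCtrl. The groups overlapped, and the log2 difference was 0.08 (SE 0.16, limma adjusted p = 0.875; exact permutation p = 0.533). Of all profiles 0% passed by limma, and 3929 had an unadjusted p under 0.05. Relative to its body, VMP1 had more downstream signal than 91.0% of profiles.

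Of the genes around VMP1, only CLTC passed the test. Of the 10 named genes in the table within 200 kb of VMP1, 9 could be tested, 1 rose and 0 fell (also 0 by limma at an unadjusted p under 0.05, by edgeR and by DESeq2), beside 24.8% of all features that rose and 23.2% that fell. Without siSFPQ-2 replicate 1 RNU4-13P was also called lower, and without siSFPQ-3 replicate 2 PTRH2 was. The median log2 difference was 0.06 beside -0.02 over all tested features. The 1 that rose was CLTC, the clathrin heavy chain gene, 10698 bp upstream on the same strand. It had 2078 and 2394 normalized reads after siSFPQ-2, then 2322 and 2202 after siSFPQ-3, against 1788 and 1684 with siCtrl (log2 difference 0.37, SE 0.10, limma adjusted p = 0.00946). The call was lost without either siCtrl library. PTRH2, across the shared promoter region printed above, had 356 and 414 for siSFPQ-2, and 317 and 456 with siSFPQ-3, against 410 and 473 with siCtrl. These overlapped, and its log2 difference was -0.20 (SE 0.15, adjusted p = 0.290). Downstream of VMP1, TUBD1, which encodes delta-tubulin and runs the other way, had a log2 difference of 0.12 (adjusted p = 0.420). RPS6KB1, the gene of ribosomal S6 kinase, had 0.08 (adjusted p = 0.514). Further out, DHX40, an RNA helicase gene, had -0.11 (adjusted p = 0.485), RNFT1 -0.03 (adjusted p = 0.842), its divergent transcript RNFT1-DT 0.26 (adjusted p = 0.353) and HEATR6 0.06 (adjusted p = 0.688). The pseudogene RNU4-13P, with between 5.54 and 24.4 normalized reads, had -0.88 (adjusted p = 0.156), and RPS29P21 had at most 4.30 and was not tested.

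**Figure D4:**
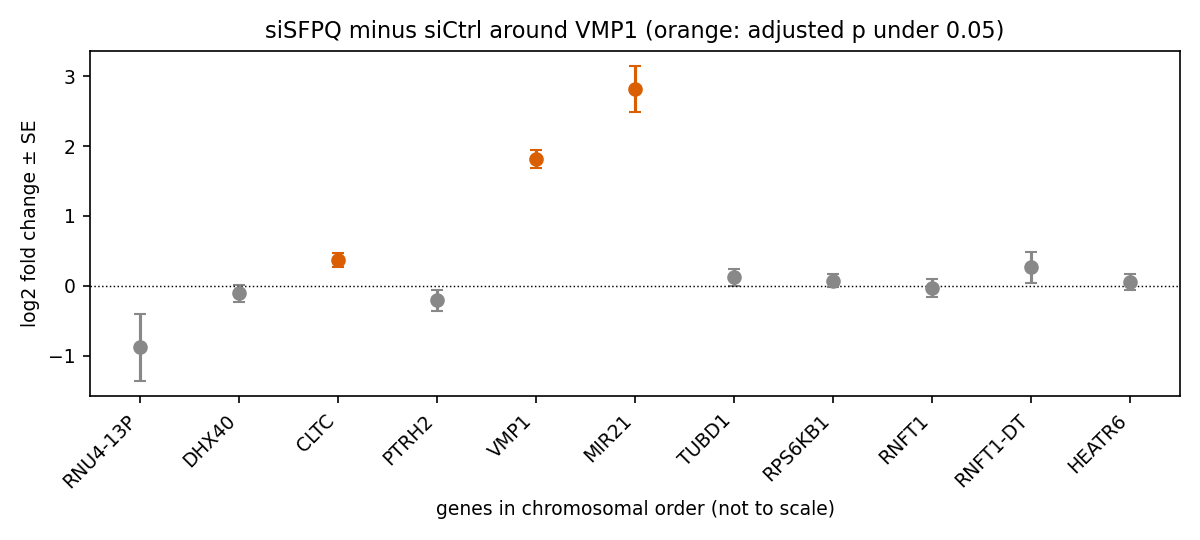
Log2 difference of siSFPQ minus siCtrl with its standard error (y axis) for VMP1, MIR21 and the 9 tested neighbours, in chromosomal order on the x axis; orange points have an adjusted p under 0.05. MIR21 at 2.81 and VMP1 at 1.82 stand above CLTC at 0.37 and the other neighbours.

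The pattern of VMP1 over the 6 libraries was closest to that of 5 features among 10886 at or above the median level. They were chosen by the smallest root mean square difference of centred log2 values, which weighs each library alike. The distances were 0.04 for AL365436.2, 0.08 for PPFIBP1, a liprin gene, 0.08 for PCCA, a subunit of propionyl-CoA carboxylase, 0.08 for AL590666.2 and 0.08 for CAP2, an actin regulator. As an example, PCCA had 4962, 5278, 6359 and 6851 normalized reads with siSFPQ, against 1918 and 1625 with siCtrl. The distance of MIR21 from VMP1 was 0.54. These are descriptions over 6 libraries of 3 groups.

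Other genes of autophagy, the process VMP1 serves, rose more often than they fell. Of 43 listed genes besides VMP1, 42 were tested, 24 rose, 4 fell and 14 did not pass, with a median log2 difference of 0.39 beside -0.02 over all features, of which 24.8% rose and 23.2% fell. TFEB, a transcription factor for lysosome and autophagy genes, averaged 438 ± 53.2 with siSFPQ (SD, n = 4) and 159 ± 17.8 with siCtrl (SD, n = 2), a log2 difference of 1.46 (limma adjusted p = 9.26e-06). RB1CC1, a scaffold of the initiating kinase complex, averaged 1996 ± 147 with siSFPQ and 990 ± 126 with siCtrl (log2 difference 1.01, adjusted p = 2.69e-05). MAP1LC3B, which coats the growing membrane, averaged 726 ± 72.7 with siSFPQ and 375 ± 33.5 with siCtrl (log2 difference 0.95, adjusted p = 5.08e-05). OPTN, a cargo receptor, averaged 422 ± 67.7 with siSFPQ and 167 ± 15.2 with siCtrl (log2 difference 1.32, adjusted p = 6.56e-05). The 4 that fell had smaller differences: EI24 -0.44, ATG4B -0.30, ATG4C -0.53 and ATG10 -0.32, and each of these calls was lost without at least 1 of the libraries.

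Among the genes that work most closely with VMP1, the lipid transfer protein gene ATG2A rose by 1.17 (limma adjusted p = 0.000242). TMEM41B, whose product resembles VMP1 as a scramblase of the endoplasmic reticulum, rose by 0.38 (adjusted p = 0.0132). BECN1, which encodes a VMP1-binding subunit of a lipid kinase complex, rose by 0.29 (adjusted p = 0.0394), and the scramblase gene ATG9A by 0.32 (adjusted p = 0.0306). The call of TMEM41B was lost without siCtrl replicate 2. The calls of BECN1 and ATG9A were lost in 6 of 14 alternatives each: without either siCtrl library, without siSFPQ-2 replicate 2, without siSFPQ-3 replicate 2, with libraries scaled to the same total, and with DESeq2. The log2 difference of VMP1, 1.82, was larger than each of these 4, an order that was not tested.

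Of 23 genes for factors known to act on MIR21 transcription or processing, 21 were tested, 10 rose, 1 fell and 10 did not pass, with a median log2 difference of 0.17. Over all features 24.8% rose and 23.2% fell. NFKB1, an NF-kB subunit gene, averaged 3407 ± 1005 with siSFPQ (SD, n = 4) and 854 ± 2.09 with siCtrl (SD, n = 2), a log2 difference of 1.94 (limma adjusted p = 1.58e-05). JUN, an AP-1 subunit gene, averaged 2532 ± 207 with siSFPQ and 805 ± 123 with siCtrl (log2 difference 1.66, adjusted p = 2.27e-06). STAT3, whose product activates MIR21, averaged 1953 ± 409 with siSFPQ and 613 ± 61.2 with siCtrl (log2 difference 1.65, adjusted p = 2.73e-05). SMAD3, a TGF-beta effector gene, averaged 4044 ± 790 with siSFPQ and 1847 ± 33.3 with siCtrl (log2 difference 1.11, adjusted p = 1.53e-05). SRF, the 1 that fell, averaged 602 ± 38.5 with siSFPQ and 845 ± 3.51 with siCtrl (log2 difference -0.49, adjusted p = 0.00215). These are reads on the factors' own genes, not their activity at VMP1 or MIR21. The list was not split by whether a factor raises or lowers MIR21, so its counts give no direction for MIR21.

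Of 30 genes reported as targets of miR-21, 28 were tested, 11 rose, 1 fell and 16 did not pass, with a median log2 difference of 0.08, beside 24.8% of all features that rose and 23.2% that fell. A microRNA acts on finished RNA, so nascent reads do not measure its repression. SPRY2 and SPRY1, which encode Sprouty inhibitors of receptor tyrosine kinase signalling, rose by 1.61 (limma adjusted p = 4.74e-07) and 1.44 (adjusted p = 1.10e-06). PELI1, a ubiquitin ligase gene, rose by 1.09 (adjusted p = 2.65e-05) and APAF1, the apoptosome scaffold gene, by 0.70 (adjusted p = 0.000456). CDC25A, a cell cycle phosphatase gene, fell by 1.04 (difference -1.04, adjusted p = 0.000395). NFIB is in both miR-21 lists and did not pass. The number of called targets was 12, against 7 without siCtrl replicate 2 and 17 with the replicate block (13 higher and 4 lower).

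**Figure D5:**
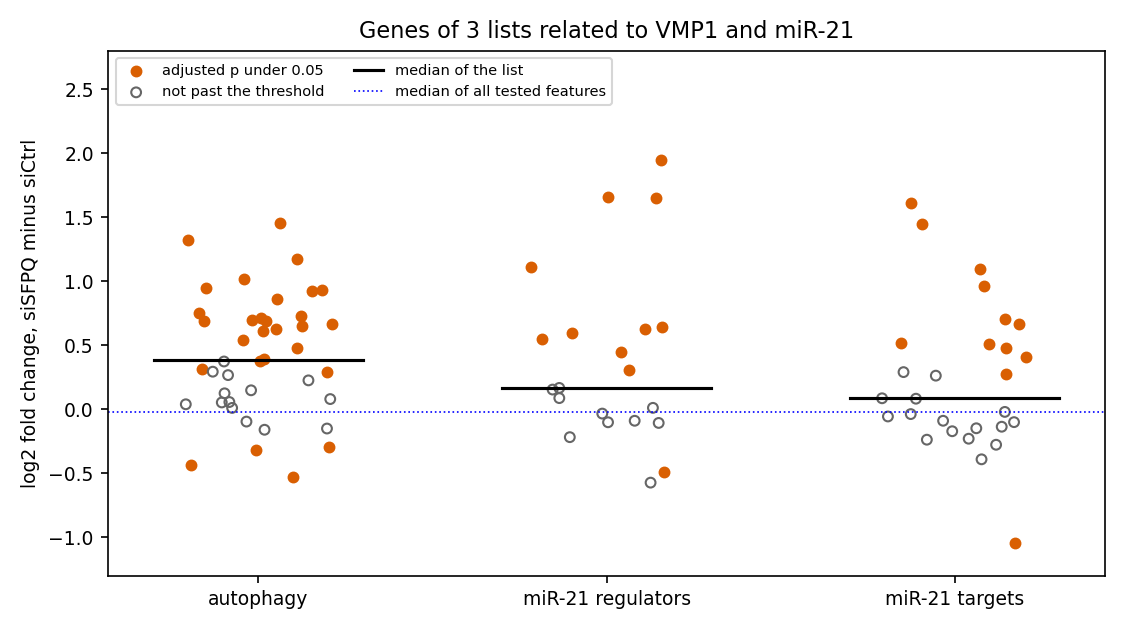
Log2 difference of siSFPQ minus siCtrl (y axis) for each tested gene of the autophagy, miR-21 regulator and miR-21 target lists (x axis, points spread sideways for legibility); filled points have an adjusted p under 0.05. The list medians, 0.39, 0.17 and 0.08, are drawn as black lines beside the dotted median of all features at -0.02.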

How the data were processed

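The builds hg38 and dm6 and, among the tools, Bowtie2, UMI-tools, DESeq2 1.38.1, SAMtools 1.3.1 and cutadapt 1.14 are named by the submitters' processing notes. Their order, the annotation, the counted part of a gene and strand use are not stated, and it is unknown whether reads on MIR21 are also counted for VMP1. The authors' deposited table holds signal as normalized reads, each a whole multiple of 1 read (100% at a tolerance of 0.1), with the authors' log2 fold change and adjusted p-value. The use made of the dm6 build and the scaling between libraries are not stated. Whether a change of total transcription would show in these values is therefore unknown. The deposited profiles hold signal in 500 bins per gene, with unstated bin sizes and scaling. Against the table, the profiles' library scale varied between 0.952 and 1.04.

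After 240 repeated lines were removed, features with at least 10 normalized reads in at least 2 libraries were tested as log2(value + 1), which understates changes of low features, with limma 3.58.1 (R 4.3.3, trend, 3 groups in 1 fit). P-values were adjusted by Benjamini-Hochberg over all features at 0.05. Profile ratios were fitted likewise, with a pseudocount of 0.101, for profiles with a mean body signal of at least 0.192. Scripts were tested on simulated data. Alternatives were other pseudocounts, filters and scaling, edgeR 4.0.16 and DESeq2 1.42.0 on recovered whole reads, other windows, leaving out each library, and a replicate block. Members and lists were chosen with earlier results of these data known. Named genes were neighbours within 200 kb, up to 4 members of each list per direction with the smallest p, TMEM41B, BECN1, ATG2A and ATG9A, the 5 features most like VMP1, and pairs past the threshold.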

Additional observations from a re-analysis of the deposited data

Results flagged for a closer look

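VMP1 has a second deposited profile in the class named ns, which the comparisons above do not use. Its position and length are unstated. Its body signal was 5.83 and 4.92 for siSFPQ-2, then 6.25 and 9.92 for siSFPQ-3, against 0.652 and 0 with siCtrl. The mean was 6.73 over the siSFPQ libraries and 0.326 over the siCtrl libraries. It drew attention because data outside the main measurement stood above their level in the control libraries.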

How the results depend on the processing

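VMP1 and MIR21 kept their direction and their side of the threshold in all 14 alternatives, for siSFPQ and for each siRNA against siCtrl, with log2 differences of all siSFPQ minus siCtrl libraries between 1.63 and 2.00 for VMP1 and between 2.20 and 3.43 for MIR21. For siSFPQ-2 minus siCtrl they ran between 1.39 and 1.77 for VMP1 and between 1.85 and 3.08 for MIR21. For siSFPQ-3 minus siCtrl they ran between 1.87 and 2.24 for VMP1 and between 2.55 and 3.78 for MIR21. The difference between the siRNAs passed in none of these for either feature. The ratio of MIR21 to VMP1, at 0.99, passed with the filter at 50 normalized reads (adjusted p = 0.0395), where fewer pairs were tested and which MIR21 passes only through the siSFPQ libraries. It did not pass without a filter (adjusted p = 0.501), so the one call is not taken as support. No profile ratio of VMP1 passed under any alternative run. The downstream window could not be given more bins and was not run so. Leaving out each library moved the number of features called between 6134 and 10669, against 10444 with all. The low end came without siCtrl replicate 2, and 6395 without siCtrl replicate 1. It moved called neighbours between 0 and 2 and called miR-21 targets between 7 and 14. Without the same siCtrl libraries 1 sample stands for the group and is assumed to vary like the others. Of 39 other named results, 3 turned their sign when a library was left out, and none of these passed the threshold: EIF4H (between -0.057 and 0.0077), RNFT1 (between -0.074 and 0.0055) and HEATR6 (between -0.059 and 0.174). Of 543 such alternatives, 509 changed nothing, 27 lost and 4 gained a call. The calls gained were those of SFPQ, without siSFPQ-3 replicate 2 and with the replicate block, PTRH2 without siSFPQ-3 replicate 2, and RNU4-13P without siSFPQ-2 replicate 1.

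Samples with the same replicate number did not deviate together in all groups (r = 0.05, 0.06 and 0.38 between pairs of groups), so the numbers were not taken as a pairing. With the replicate block, 11933 features and 17 of the 28 miR-21 targets were called (12 targets without it), and VMP1 and MIR21 kept their log2 differences of 1.82 and 2.81. Depth limits MIR21, with 5 reads in siCtrl replicate 2.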
